A study of Rattus norvegicus with 8 samples.

Results

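Claudins and connexins are the membrane proteins that give neighbouring cells their tight junctions and gap junctions. Their messenger RNAs were followed here in rat lung tumors induced by NNK, in the matched normal lung tissues, and in blood. The members were the mRNA probes whose RefSeq accession mapped to a rat gene symbol that begins with Cldn or with Gja to Gje and goes on with a number. The rule took 36 genes, 25 claudins and 11 connexins, from the 13888 genes that the 15323 mRNA probes of the Arraystar rat lncRNA array name, and each of the 36 had 1 probe printed in 1 spot. The annotation held 50 genes of this kind, and 14 of them had no probe that matched.

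NNK is a nitrosamine of tobacco smoke that induces lung tumors in F344 rats. Lung tumor tissues 1 to 3 and normal lung tissues 1 to 3 all came from the NNK treatment group in week 95, so the normal lung had been exposed to the carcinogen too, and tumors of this model were moderately differentiated adenocarcinomas by pathology. Each piece was measured in bulk, and nothing in the labels gives the share of tumor cells in it. The blood samples were clots from whole blood in week 95, 1 of the control group and 1 of the NNK treatment group. The dose and route of NNK are not given in the sources used here.

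A tight junction closes the space between epithelial or endothelial cells, and the claudins in it decide whether the seal blocks ions or lets chosen ones through. In the lung Cldn18, Cldn3 and Cldn4 are the known claudins of the alveolar epithelium, and Cldn5 is the known claudin of the vessel wall. Connexins assemble into channels that join the cytoplasm of adjacent cells, and Gja1 is the most widespread of them. Gja4 and Gja5 are known from arterial endothelium, and Gjb1, Gjb2 and Gjb6 from epithelia, glia and the inner ear.

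The promoters of 6 members on which the results turn are shown because they are among the claudins and connexins that rose (Cldn3, Cldn6, Gjb2 and Gjb6) and the vessel members that fell (Cldn5 and Gja5). They are RefSeq sequences of the assembly GRCr8, 5′ to 3′ on the strand of the gene, from 250 bases before to 50 bases after the start, and capitals mark each GC box (GGGCGG) or TATA box (TATAAA) on either strand. Gjb6 had 2 entries, and the one with the outermost start is printed.
Cldn3 (chr12:27346498-27346797, minus strand): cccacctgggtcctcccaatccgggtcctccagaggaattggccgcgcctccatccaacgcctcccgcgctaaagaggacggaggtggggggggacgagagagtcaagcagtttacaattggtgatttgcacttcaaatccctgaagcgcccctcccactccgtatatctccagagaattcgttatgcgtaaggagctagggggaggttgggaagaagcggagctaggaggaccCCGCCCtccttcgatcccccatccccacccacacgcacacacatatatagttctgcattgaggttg
Cldn6 (chr10:13215558-13215857, plus strand): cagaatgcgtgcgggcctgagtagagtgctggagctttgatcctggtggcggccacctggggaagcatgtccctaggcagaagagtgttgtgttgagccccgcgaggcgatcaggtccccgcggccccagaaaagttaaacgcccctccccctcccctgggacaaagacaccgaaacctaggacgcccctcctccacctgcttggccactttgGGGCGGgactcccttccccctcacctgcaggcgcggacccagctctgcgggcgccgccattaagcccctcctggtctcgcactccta
Gjb2 (chr15:35381904-35382203, minus strand): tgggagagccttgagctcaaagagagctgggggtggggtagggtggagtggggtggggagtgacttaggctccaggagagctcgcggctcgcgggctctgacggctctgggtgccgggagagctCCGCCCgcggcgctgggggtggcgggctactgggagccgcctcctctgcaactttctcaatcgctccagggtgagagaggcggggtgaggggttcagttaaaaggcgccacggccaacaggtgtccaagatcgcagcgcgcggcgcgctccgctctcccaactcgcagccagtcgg
Gjb6 (chr15:35410089-35410388, minus strand): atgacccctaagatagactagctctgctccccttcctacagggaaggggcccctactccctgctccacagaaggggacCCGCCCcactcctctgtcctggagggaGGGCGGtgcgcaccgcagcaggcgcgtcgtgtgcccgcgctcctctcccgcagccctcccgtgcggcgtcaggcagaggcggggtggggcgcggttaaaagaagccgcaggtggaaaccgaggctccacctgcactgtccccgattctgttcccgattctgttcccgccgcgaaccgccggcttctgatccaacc
Cldn5 (chr11:95718549-95718848, minus strand): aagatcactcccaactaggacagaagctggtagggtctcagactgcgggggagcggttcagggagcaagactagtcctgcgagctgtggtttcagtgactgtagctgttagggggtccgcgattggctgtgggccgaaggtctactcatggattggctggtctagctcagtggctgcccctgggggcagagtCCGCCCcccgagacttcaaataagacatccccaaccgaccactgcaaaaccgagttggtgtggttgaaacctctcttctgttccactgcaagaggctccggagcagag
Gja5 (chr2:187290977-187291276, plus strand): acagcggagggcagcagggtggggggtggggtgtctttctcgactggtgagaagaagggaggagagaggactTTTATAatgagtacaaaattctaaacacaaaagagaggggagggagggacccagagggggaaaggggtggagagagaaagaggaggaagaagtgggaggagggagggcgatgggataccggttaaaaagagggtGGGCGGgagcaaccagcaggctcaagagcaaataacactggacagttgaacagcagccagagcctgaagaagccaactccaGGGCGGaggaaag
A GC box lay in 16 of the 29 promoters found for 28 of the members, and in 33.1% of all 33469 promoters of the table. TATAAA lay in 2 of the 29 and in 14.2% of all promoters, the E box CANNTG in 26 and in 72.1%, and the AP-1 motif TGANTCA in 3 and in 7.33%. The Grainyhead motif AACCNGTT, present in 2.1% of all promoters, was in none of the 29. Both strands were searched for each motif and matches may overlap. All of the 6 printed promoters held a GC box, in Gjb6 and Gja5 2 of them, whether the gene was higher or lower in tumors. These matches describe letters and are not sites shown to be bound.

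The values below are log2 processed signals after quantile normalization, and a level was never set against that of another probe. The summed linear signals of lists do add probes together, so each sum mainly follows the brightest probes of its list. The 3 normal lung arrays differed from each other by less than the noise between spots of the same probe (observed over expected mean square 0.464 to 0.788), and so did lung tumors 2 and 3 (0.464), while lung tumor 1 stood apart from those (3.01 and 3.34). The SEs, 95% intervals and p-values of the 3 against 3 comparison take every array as a separate sample. They therefore measure a spread that may be technical, not one between animals. Normal lung 1 to 3 and lung tumor 1 were scanned together, lung tumors 2 and 3 in another scan, and both blood arrays in one of their own. Outlier marks lay on 4.92% to 8.62% of the spots above background of normal lung and on 15.9% to 25.3% of those of tumors. Among tissue markers, Sftpc was above background on every lung array and on no blood array. Ager and the red blood cell probes (5 of 5) were above background on all lung and blood arrays. Their detection therefore does not tell the tissues apart.

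Of the 36 members, 22 had a signal well above background on each of the 6 lung arrays (67.7% of all mRNA probes did), 16 claudins and 6 connexins. No array of the 8 measured Cldn14, Cldn16 or Cldn24 above background. The filter of at least 3 lung arrays above background was passed by 25 members and not by 11. Outlier marks took too many spots of Cldn7, Cldn8, Cldn23, Gja5 and Gjb2, which are therefore given from a second fit over 15803 probes with the marked spots kept. The other 20 were tested with 12471 probes in all.

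Members were called in both directions. Compared with normal lung, 7 of the 20 were higher in tumors by at least 2-fold at an adjusted p of 0.05 or below, 7 were lower and 6 were not called. Over all probes tested, 13.5% were called higher and 15.5% lower. With the marked spots kept, 10 of 25 were higher and 8 lower, against 13.5% and 14.4% of all probes, and 7 were not called. The median absolute log2 fold change was 1.81 for those 25 and 0.59 for all probes of that fit. By family, the claudins gave 6 higher, 6 lower and 6 not called of 18, and the connexins 4 higher, 2 lower and 1 not called of 7. In bulk tissue, fewer cells of a type and less RNA per cell cannot be told apart. On the arrays of all 18 called members the tumors and normal lungs did not overlap, and lung tumor 1 alone, compared within its own scan, differed from normal lung in the same direction and by at least 2-fold for all 18. Of all 4416 probes called with marked spots kept, 99.7% did not overlap and 85.4% met the condition on lung tumor 1. The missing overlap is thus a feature of nearly every call. Lung tumor 1 is also among the arrays that made each call, so its agreement is not an independent check.

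**Figure D1:**
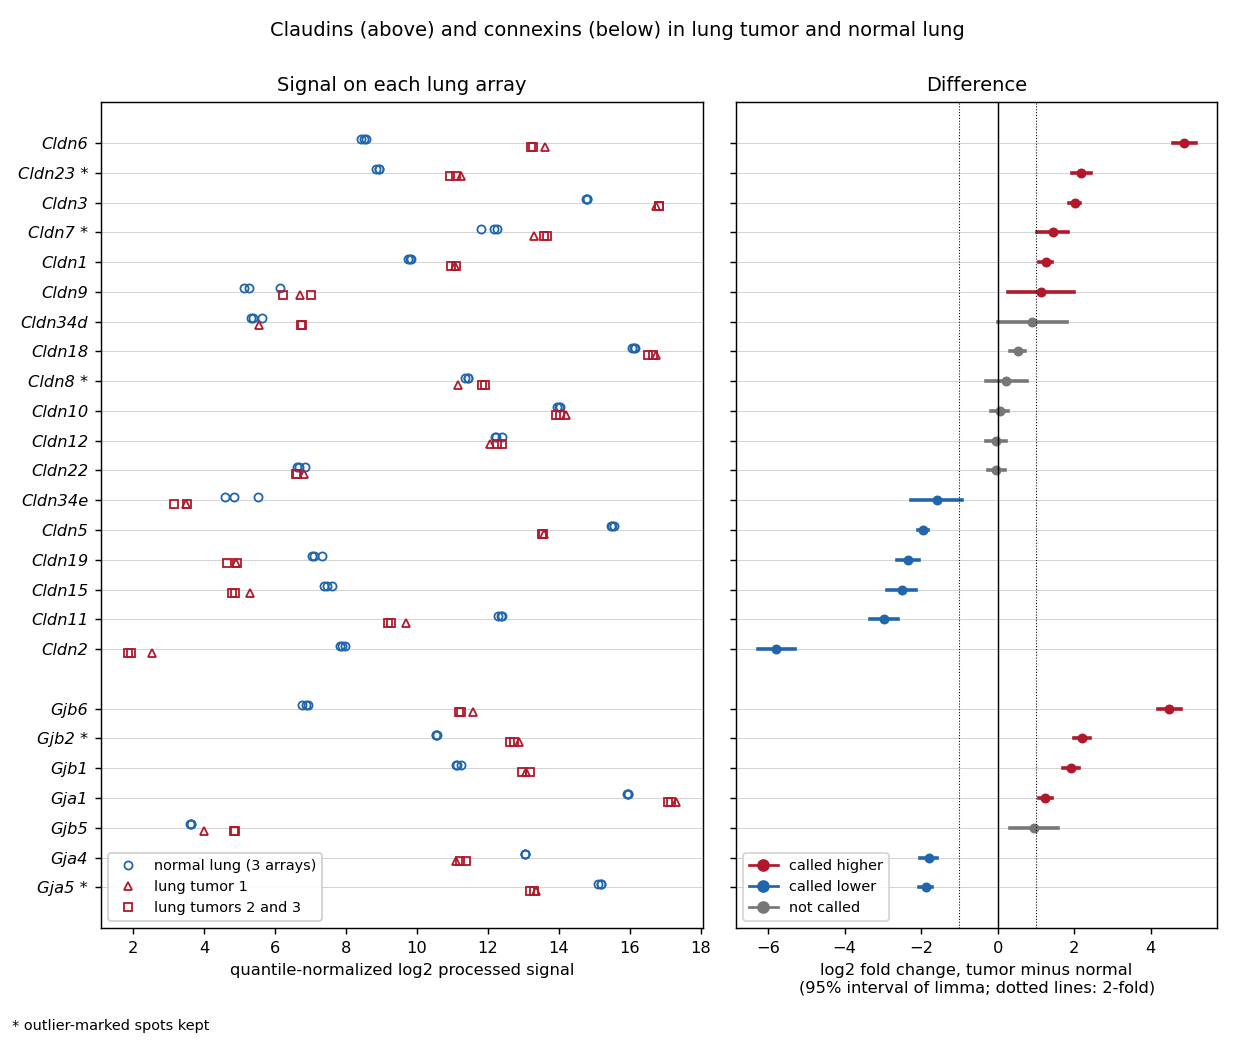
Left, the quantile-normalized log2 processed signal of each tested member on each lung array, with normal lung as blue circles, lung tumor 1 as a red triangle and lung tumors 2 and 3 as red squares. Right, the log2 fold change (tumor minus normal) with its 95% interval from limma, in red where called higher, blue where called lower and grey where not called, with an asterisk where outlier-marked spots were kept. Cldn6 and Gjb6 lie farthest to the right at 4.87 and 4.48, and Cldn2 farthest to the left at -5.78.

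Among claudins that seal epithelia, Cldn3 read 14.78, 14.76 and 14.79 on the normal lung arrays and 16.72, 16.82 and 16.81 on the tumor arrays. Every tumor array was above every normal one. Its log2 fold change was 2.01 (SE 0.053, adjusted p = 6.08e-06), a 4.02-fold rise. Cldn7, a claudin of many epithelia that is also found along the side walls of cells, was at 11.79, 12.18 and 12.25 in normal lung and at 13.28, 13.66 and 13.57 in tumors. The groups did not overlap, and the log2 fold change was 1.43 (SE 0.16, adjusted p = 0.000722), with 2 of its tumor spots carrying an outlier mark. Cldn1, the claudin that keeps the skin barrier tight, read 9.84, 9.74 and 9.81 against 11.07, 11.11 and 10.96. It rose 2.38-fold (log2 1.25, SE 0.064, adjusted p = 3.92e-05). Counting near-identical arrays once left the changes of Cldn1 and Cldn7 at 1.26 and 1.37 with adjusted p = 0.0511 and 0.059, outside the threshold.

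Cldn18, whose lung form is a marker of alveolar epithelium, was bright everywhere. It read 16.14, 16.06 and 16.11 in normal lung and 16.72, 16.50 and 16.65 in tumors. The groups did not overlap, yet the log2 difference of 0.52 (95% interval 0.33 to 0.70, adjusted p = 0.00193) stayed under 2-fold, so Cldn18 was not called. Cldn4, the partner of Cldn3 and Cldn18 in alveolar junctions, was not well above background on any lung array, with values of 1.22 to 1.26 in normal lung and 2.15 to 2.76 in tumors. Its probe did report on both blood arrays.

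Cldn6 showed the largest rise among the members tested. This claudin belongs to embryonic epithelia and is little used in most adult tissues. It read 8.55, 8.41 and 8.50 in normal lung and 13.59, 13.22 and 13.26 in tumors, so the arrays were separated by several log2 units. The log2 fold change was 4.87 (SE 0.12, adjusted p = 5.36e-06), or 29.2-fold, and within the first scan lung tumor 1 was 5.11 above normal lung. Cldn9, its neighbour in the genome and a claudin of the inner ear, was at 6.15, 5.13 and 5.26 against 6.69, 6.22 and 7.02. The lowest tumor array exceeded the highest normal one by only a little, and the log2 fold change of 1.13 (SE 0.34) had an adjusted p = 0.0327. That call was lost in 10 of 20 alternatives. It was lost without normal lung 2 (adjusted p = 0.0931), normal lung 3 (0.0952), lung tumor 1 (0.0772) or lung tumor 3 (0.0945), with a range of adjusted p up to 0.133 over all alternatives.

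Cldn23 was the other claudin to rise. With 2 marked tumor spots kept it read 8.93, 8.84 and 8.94 in normal lung and 11.24, 10.92 and 11.10 in tumors, without overlap. The log2 fold change was 2.18 (SE 0.096, adjusted p = 1.88e-05).

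Of the claudins known to form pores, Cldn2 and Cldn15 fell and Cldn10 was not called. Cldn2, the cation and water pore of leaky epithelia such as the kidney proximal tubule, read 7.96, 7.82 and 7.89 in normal lung and 2.54, 1.93 and 1.86 in tumors. No tumor array was well above background, so the fall is a bound: Cldn2 was at least 36.6-fold lower in tumors on the processed signal. The fit itself, without the bound, gave a log2 fold change of -5.78 (adjusted p = 1.09e-05). With normexp background correction, which adds an offset of 50, the log2 difference shrank to -2.18. Cldn15, a cation pore of the intestine, was at 7.61, 7.39 and 7.47 against 5.29, 4.87 and 4.78. It fell by 2.51 on the log2 scale (SE 0.15, adjusted p = 6.96e-05), with no overlap, and the log2 difference was -1.45 with normexp. Cldn10, whose splice forms conduct cations or anions, read 13.95, 14.00 and 14.02 in normal lung and 14.20, 13.91 and 14.04 in tumors. These overlapped, and the log2 difference was 0.06 with a 95% interval of -0.16 to 0.28.

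Cldn11, the claudin of myelin and of the Sertoli cell barrier, read 12.38, 12.36 and 12.29 in normal lung and 9.68, 9.26 and 9.17 in tumors. It fell by 2.97 on the log2 scale (SE 0.14, adjusted p = 3.12e-05), with all tumor arrays below all normal ones. Cldn19, which works with Cldn16 in magnesium uptake of the kidney, was at 7.32, 7.03 and 7.11 against 4.90, 4.92 and 4.65. It fell by 2.33 (SE 0.11, adjusted p = 3.26e-05), again without overlap, and the log2 difference was -1.18 with normexp. Its partner Cldn16 was above background on no array. Cldn34e, one of a group of close and little characterised paralogs, read 4.59, 5.52 and 4.83 in normal lung and 3.50, 3.14 and 3.51 in tumors. Its fall by 1.60 (SE 0.27, adjusted p = 0.00368) rested on dim spots, 2 of the 3 tumor spots being above background, and was lost with normexp background correction (-0.42) and in the methods' paired test (adjusted p = 0.0986). Probes of the Cldn34 paralogs may share targets, since their sequences were not given.

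Cldn5, the claudin of endothelial tight junctions, read 15.49, 15.46 and 15.54 in normal lung and 13.58, 13.56 and 13.52 in tumors. The arrays within each group were close together and the groups far apart. Cldn5 fell by 1.94 on the log2 scale (SE 0.052, adjusted p = 6.23e-06), and was 3.85-fold lower.

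Cldn12, Cldn22, Cldn8 and Cldn34d were not called. Cldn12, which lacks the tail motif that binds most tight junction scaffolds, read 12.20 to 12.38 in normal lung and 12.06 to 12.38 in tumors, with a log2 difference of -0.04 (95% interval -0.29 to 0.22). For Cldn22 the difference was -0.04 (95% interval -0.27 to 0.19). Both groups overlapped for these genes, and the intervals lie within 2-fold in either direction. Cldn8, known from the kidney collecting duct, had a difference of 0.23 (95% interval -0.32 to 0.77) with 5 of its 6 lung spots carrying a mark. Lung tumor 1 differed from the normal mean by -0.26, opposite to the pooled value.

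Lung tumor 1 also parted from the other tumors for Cldn34d. Normal lung read 5.63, 5.33 and 5.38, lung tumor 1 read 5.55, and lung tumors 2 and 3 read 6.76 and 6.74. The pooled log2 difference was 0.91 (95% interval 0.01 to 1.80, adjusted p = 0.0708). Within the scan of normal lung, lung tumor 1 was 0.11 above the normal mean. Without lung tumor 1 the log2 difference was 1.30, but tumor and scan cannot be told apart in that comparison. Cldn34a read 1.61 in lung tumor 1, 4.17 in lung tumor 2 and 6.28 in lung tumor 3, was below background in all normal lungs and was not tested.

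Of the connexins, Gjb6 rose most. It read 6.93, 6.77 and 6.86 in normal lung and 11.57, 11.18 and 11.25 in tumors, a gap of several log2 units with no overlap. The log2 fold change was 4.48 (SE 0.12, adjusted p = 6.17e-06), or 22.3-fold, and 4.71 for lung tumor 1 within the first scan. Gjb2, the partner of Gjb6 in the cochlea and the gene next to it in the genome, was at 10.54, 10.57 and 10.54 against 12.88, 12.74 and 12.61. It rose by 2.20 on the log2 scale (SE 0.081, adjusted p = 1.18e-05) with marked spots kept, since all 3 tumor spots carried a mark. Gjb1, the main connexin of hepatocytes and of Schwann cells, read 11.13, 11.24 and 11.10 in normal lung and 13.07, 13.18 and 12.95 in tumors. Its groups were also apart, by a log2 fold change of 1.91 (SE 0.081, adjusted p = 2.15e-05).

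Gja1 was bright in normal lung, at 15.92, 15.93 and 15.95, and brighter in tumors, at 17.28, 17.16 and 17.08. All tumor arrays lay above all normal ones. It rose 2.36-fold (log2 1.24, SE 0.069, adjusted p = 5.12e-05), and with near-identical arrays counted once the change was 1.27 with adjusted p = 0.0561. Gjb5, a skin connexin, was not above background in normal lung (3.60 to 3.64) and read 4.00, 4.86 and 4.83 in tumors. The log2 fold change was 0.94 (SE 0.25, adjusted p = 0.0204), or 1.92-fold, under the 2-fold limit. Lung tumor 1 alone was 0.37 above the normal mean on the log2 scale. Without lung tumor 1 the log2 difference was 1.22, over the 2-fold limit. That left lung tumors 2 and 3, which were near-identical and alone in their scan, so tumor and scan cannot be told apart there. With normexp the log2 difference was 0.27.

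Both arterial connexins fell. Gja4 read 13.03, 13.04 and 13.05 in normal lung and 11.10, 11.21 and 11.39 in tumors, a fall by 1.81 on the log2 scale (SE 0.086, adjusted p = 2.96e-05). Gja5 read 15.18, 15.18 and 15.09 against 13.35, 13.28 and 13.18, and fell by 1.88 (SE 0.068, adjusted p = 1.1e-05) with 3 marked tumor spots kept. Neither gene had a tumor array that reached a normal one. The falls of Cldn5, Gja4 and Gja5 were 3.85-fold, 3.50-fold and 3.68-fold. Markers of endothelium moved with them: the endothelial list had 5 probes, of which Tek (-2.74), Pecam1 (-1.88) and Emcn (-1.37) were lower in tumors, Esam was not called (-0.56) and Cdh5 was above background on no array. The summed linear signal of the 5 was 235405 to 243173 in normal lung and 65521 to 70999 in tumors. The part of this in the falls of the 3 members was not tested.

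Of the connexins, Gja3 of the lens, Gjd2, the neuronal one, and Gja6 of rodent testis did not pass the lung filter. Neither did Cldn17, nor Cldn20, which was above background in 2 normal lungs (values 3.80 to 4.34) and in no tumor (1.36 to 2.49). Cldn20 lies within the region of Tfb1m.

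Some members are neighbours in the annotation. Gjb2 and Gjb6 were both higher in tumors (2.20 and 4.48 on the log2 scale), and so were Cldn6 and Cldn9 (4.87 and 1.13). Cldn3 and Cldn4, Cldn1 and Cldn16, Cldn8 and Cldn17, and Cldn22 and Cldn24 are adjacent too, and in each of these pairs the second gene did not pass the lung filter.

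The list of tight junction partners (scaffolds, adaptors and strand proteins) held 42 genes, of which 34 had a probe. With marked spots kept, 3 of its 34 tested probes were higher, 7 lower and 24 not called. Over all probes, 13.5% were higher and 14.4% lower. The median log2 fold change was -0.47 for the list against 0.06 for all probes. Ildr1, a protein of tricellular contacts, was higher by 2.29, Marveld3, a relative of occludin, by 1.79, and Igsf5, a junctional adhesion molecule of epithelia, by 1.15. Mpdz, a multi-PDZ scaffold that binds claudins, fell by 2.52, Bves, a junction protein of epithelia and muscle, by 2.48, and Jam2, an adhesion molecule known from endothelium, by 2.46. The other probes called lower were Amotl2 (-1.66), Prkcz (-1.60), Pals1 (-1.41) and Pard6b (-1.27), of which the last 3 belong to the polarity complexes beside the junction. The scaffolds Tjp1 (-0.61) and Tjp3 (0.64) and the strand protein Ocln (0.72) differed by less than 2-fold. With marked spots left out, 1 of 25 was higher and 3 lower, against 13.5% and 15.5% of all probes.

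For gap junction partners, 4 of 11 tested probes were lower, against 14.4% of all probes. The largest positive difference, 0.57 for Panx1, was under 2-fold. Both probes of Cav1, the coat protein of caveolae that binds connexins, fell (by 2.38 and 2.37), as did Ccn3 (by 1.36), a secreted protein that binds Gja1, and Src (by 1.28), a kinase that phosphorylates Gja1. Cav1 is a type 1 alveolar marker too, and of that list 6 of 9 probes were lower, both Cav1 probes among them. The summed linear signal of the list, with Cav1 counted through both of its bright probes, was 1241520 to 1256760 in normal lung and 329490 to 354422 in tumors.

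Adherens junction and desmosome genes gave 3 higher and 2 lower of 15 tested probes, near the 13.5% and 14.4% of all probes. Nectin2, an adhesion molecule, rose by 1.83 and Dsc2, a desmosomal cadherin, by 1.79 on the log2 scale. Cdh2, the neural cadherin, rose by 2.09 on one probe and stood at 0.50, not called, on its other probe. Ppl, a desmosomal linker, fell by 1.16. The other lower probe was that of Nectin3, an adhesion molecule, at 5.71, 5.76 and 5.40 in normal lung and 2.93, 2.03 and 2.13 in tumors (adjusted p = 0.000193), where no array was above background. Cdh1, the epithelial cadherin, differed by 0.28 and was not called.

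Among transcription factors, splicing factors and proteases known to regulate junction genes, 4 of 17 tested probes were higher and 1 lower. Over all probes, 13.5% were higher and 14.4% lower. Elf3, an epithelial ETS factor, rose by 2.44, Ovol1 by 2.29 and Grhl2, a Grainyhead factor that acts on claudin genes, by 1.20. Snai1, a repressor of epithelial junction genes, fell by 1.73. Of the general epithelial markers other than claudins, 4 of 8 probes were higher (Elf3, Esrp1 and Spint1 stand in both lists), with a summed linear signal of 289753 to 294737 in normal lung and 438989 to 458660 in tumors. Type 2 alveolar markers were higher for 2 of 8 probes. What part these lists have in the rises of members was not tested.

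**Figure D2:**
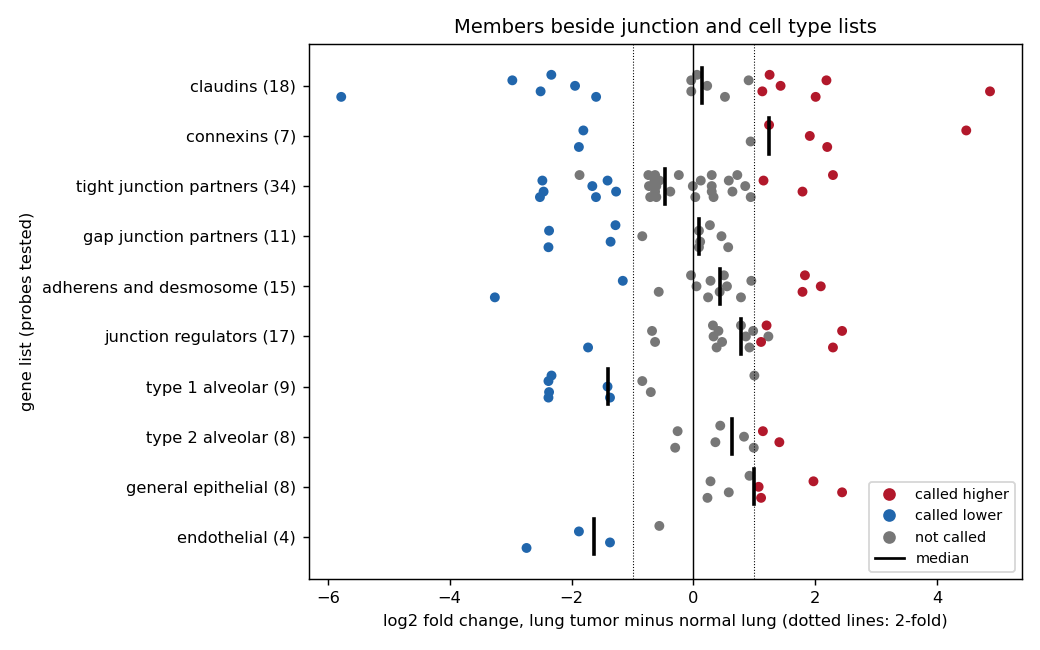
Each point is a probe, placed by its log2 fold change (lung tumor minus normal lung) and coloured by its call, for the tested claudins and connexins and for the probes of 8 lists, with a black line at the median of each list. Members without marked spots have the value of the fit without marks, and the other points are from the fit with marked spots kept. Claudins spread from -5.78 to 4.87 around a median of 0.14, while the median was -1.41 for type 1 alveolar and -1.62 for endothelial markers.

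In blood, with 1 array per group, differences have no replicate check and no test. Of 23 members above background on at least 1 of the 2 arrays, 4 were raised in NNK blood by 2-fold or more and 4 were lowered by as much, against 23.1% and 19.1% of all probes compared. The median log2 difference was -0.31 for the members and -0.11 for all probes. The blood arrays were dim, with a 75th percentile of the processed signal of 95.4 in control and 205.8 in NNK blood, against 1191 to 1329 in lung.

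Gjb1 read 8.09 in control blood and 10.11 in NNK blood, a log2 difference of 2.01. Cldn1 went from 5.27 to 7.26 (1.99) and Gjb2 from 5.92 to 7.14 (1.22). Cldn7 was not above background in control blood (2.42) and read 5.97 in NNK blood. On the processed signal it was at least 5.31-fold higher, but normexp background correction gave a log2 difference of only 0.76. These 4 genes are among the 10 that were higher in lung tumors, of which 5 could be compared in blood. Of all 1467 probes called higher in tumors and compared in blood, 20% were at least 2-fold higher in NNK blood. The remaining one, Cldn6, was at 12.93 and 12.71.

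In the other direction Cldn4 read 7.01 in control and 4.83 in NNK blood (-2.18), and Cldn10 read 8.86 and 7.37 (-1.48). Cldn5 and Gja3 were above background in control blood only. On the processed signal they were at least 2.80-fold and 2.22-fold lower in NNK blood, a bound that did not hold with normexp. The count of lower members moved between 2 and 8 with the scaling and the filter, so it rests on those choices. With normexp background correction Cldn7 (0.76), Gjb2 (0.62), Cldn5 (-0.44) and Gja3 (-0.34) all came under 2-fold. Over all settings the log2 difference ranged from 1.06 to 3.53 for Cldn1, from 0.62 to 2.19 for Gjb2, from 0.76 to 5.51 for Cldn7, from -3.91 to -1.09 for Cldn4, from -3.47 to -0.44 for Cldn5 and from -3.16 to -0.34 for Gja3. Cldn18 (13.47 and 13.17), Cldn22 (12.13 in both), Cldn34d (14.84 and 14.80) and Gja4 (10.02 and 9.76) differed by less than 2-fold.

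**Figure D3:**
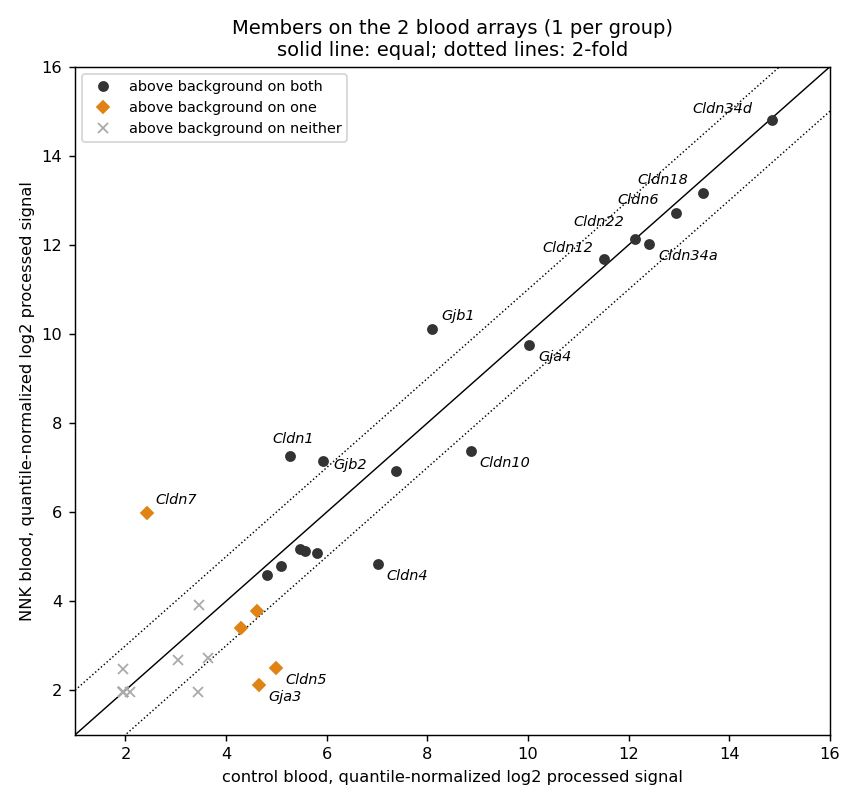
Log2 processed signal of the 36 members in control blood (horizontal axis) and NNK blood (vertical axis), 1 array each, quantile-normalized within the pair, with the solid line at equality and dotted lines at 2-fold. Black points were above background on both arrays, orange diamonds on one and grey crosses on neither. Gjb1, Cldn1, Gjb2 and Cldn7 lie above the upper dotted line, and Cldn4, Cldn10, Cldn5 and Gja3 below the lower one.

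Lung and blood differed in which members they showed. On both blood arrays 18 of the 36 members were above background (54.6% of all mRNA probes), and 10 members were above background on all 6 lung arrays and on no blood array (12.6% of mRNA probes). These 10 were Cldn3, Cldn8, Cldn9, Cldn11, Cldn15, Cldn19, Cldn23, Gja1, Gja5 and Gjb6. Cldn4, Cldn17 and Gja6 were above background on both blood arrays and on no lung array. Tissue and scan cannot be told apart here, since all blood arrays were scanned together.

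Several members were brighter in blood even before any scaling. The unscaled processed signal of Cldn34d was 36.5 to 42.9 in normal lung, 46.2 to 122.6 in tumors, 28187 in control and 29897 in NNK blood. For Cldn22 it was 87.6 to 101.5 in normal lung and 4176 and 4788 in blood, and for Cldn34a 4.18 to 10.3 and 5076 and 4507. Cldn6 was at 325.4 to 353.5 in normal lung, 8827 to 11958 in tumors, and 7456 and 7140 in blood. After quantile normalization over all 8 arrays the order of tumors and blood turned, with Cldn6 at 12.60, 12.21 and 12.26 in tumors and at 14.99 and 14.86 in blood. Markers of red blood cells were lower in tumors for 3 of 5 probes, against 14.4% of all probes. Their summed linear signal was 224802 to 232172 in normal lung and 134701 to 142052 in tumors. Their part in the level of Cldn6 was not tested.

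Cldn18 was bright in blood as well. After quantile normalization over all 8 arrays it read 15.47 to 15.56 in normal lung, 15.98 to 16.24 in tumors, 15.33 in control blood and 15.14 in NNK blood, while its unscaled signal was 69304 to 72263 in normal lung and 10854 and 9603 in blood. Of the 8 probes for type 2 alveolar markers, 5 were above background on both blood arrays, but Sftpc, the defining one, was on neither. For Cldn12, Gja4 and Gjb1 the order of lung and blood turned with the scaling: Gja4 read 12.03 to 12.05 in normal lung and 12.95 and 12.73 in blood after normalization, but 8537 to 9403 and 840.2 and 1084 unscaled. Gja1, by contrast, was at 60375 to 66095 in normal lung and 6.65 and 24.8 in blood, below background there.

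**Figure D4:**
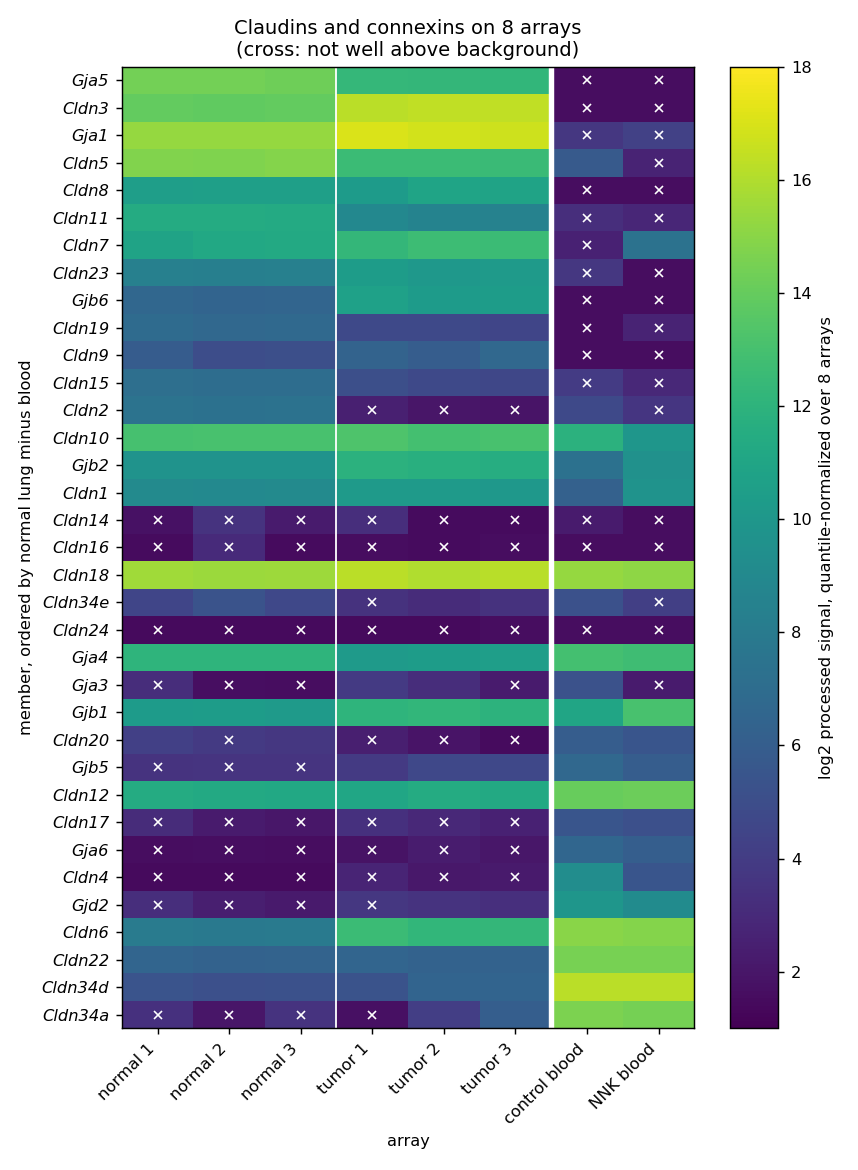
Colour gives the log2 processed signal, quantile-normalized over all 8 arrays, of the members shown (rows, ordered by normal lung minus blood) on each array (columns), and a white cross marks a value not well above background. Gja5, Cldn3 and Gja1 at the top carry crosses in both blood columns, and Cldn6, Cldn22, Cldn34d and Cldn34a at the bottom are brighter in blood than in normal lung.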

How the data were processed

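Total RNA of 6 lung and 2 blood samples of week 95 was hybridised to the array in 1 colour (Cy3). The authors deposited spot intensities of Agilent Feature Extraction 10.5.1.1, whose processed signal is background-subtracted and not normalized between arrays, and log2 values quantile-normalized over 8 arrays in GeneSpring. Analysis used R 4.3.3 and limma 3.58.1. After log2 transformation, processed signals of 42136 non-control spots were quantile-normalized among the 6 lung arrays and, separately, between the 2 blood arrays. Outlier-marked spots were dropped, and probes well above background on at least 3 lung arrays were tested with lmFit and eBayes, with Benjamini-Hochberg adjustment over all probes. A call needed a 2-fold change and an adjusted p of 0.05. Blood was compared by fold alone. A bound sets the bright group's mean against the higher of the dim probe's signal and the lowest signal above background on each dim array. Symbols came from GRCr8 RefSeq accessions (93.2% of mRNA probes matched), and besides the promoters the assembly served only to find which genes neighbour or overlap each other.

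The members and lists were chosen with earlier results of these data known. Named with values were members called in lung, above background on all 6 lung arrays, or changed 2-fold in blood, and, of each junction list, the 3 largest rises and falls among called probes above background in both groups. Other list genes were named after their values were seen. Cell type lists fixed besides those in the text gave, with marked spots kept, 3 of 5 probes higher and 1 lower for heart muscle, 8 of 9 lower for hepatocyte, 2 higher and 1 lower of 5 for club and airway, 7 of 7 not called for smooth muscle and fibroblast, 3 of 5 lower for platelet, 1 higher and 1 lower of 12 for leukocyte, and 4 of 6 higher for proliferation. Over all probes of that fit, 13.5% were higher and 14.4% lower. The authors call the normal lung tissues matched, but the sample titles do not say that equal replicate numbers mean the same rat. With equal numbers taken as pairs, the correlations of their deviations from the group means were 0.14, -0.04 and 0.16. One label of the NNK blood sample repeats a lung tumor's, but its other labels say blood, and it was treated so. The steps were tested on simulated data. Some items counted here are not reported by name.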

Additional observations from a re-analysis of the deposited data

How the results depend on the processing

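In lung, 7 members were called higher and 7 lower, and 20 alternatives were run. With near-identical arrays counted once, 4 were higher and 7 lower. The replicate block, which takes equal replicate numbers as pairs, left 7 higher and 7 lower and changed no call of a member. Leaving out 1 array in turn gave 6 to 8 higher and 7 lower. Other settings gave 6 to 10 higher and 6 to 8 lower, but not all tested the same number of members. Where 10 were higher, 25 members were tested, against 20 in the main fit. The stricter filter left 18, and dropping the filter on dim probes gave 31. No tested member that was called changed its direction. The 75th percentile shift added Gjb5 (1.15). In blood, 4 members were 2-fold higher and 4 lower. The 75th percentile shift gave 4 and 8, quantile normalization over all 8 arrays 4 and 7, normexp 2 and 2, the filter for both arrays above background 3 and 2, and the authors' normalized values 4 and 7. The causes of these moves were not tested. With 2 tumors and 1 normal lung distinct beyond the noise between spots, the number of arrays limits the precision.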
